A study of Mus musculus with 45 samples.

Results

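The integrated stress response is the program by which cells meet shortage of amino acids, unfolded protein in the endoplasmic reticulum, loss of heme and viral RNA. Several kinases phosphorylate the translation factor eIF2α, which slows protein synthesis in general and at the same time favors translation of the transcription factor ATF4. ATF4 then raises genes for amino acid synthesis, uptake and tRNA charging, together with regulators that feed back on the response. The mRNA level of Atf4 is not its protein level, and neither protein nor eIF2α phosphorylation was measured in these samples. The genes described here are 9 that are widely used as readouts of this program, Atf4, Atf3, Ddit3, Ddit4, Asns, Chac1, Trib3, Psat1 and Phgdh. They were chosen by symbol from the 33924 genes of the RNA-seq tables, and all 9 varied between samples and had a mean value of at least 3 in both tables.

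RNA-seq was performed on mouse embryonic stem cells (ESCs) of strain 129 that carry 1 of 2 deletions at the lncRNA gene 5430416N02Rik, made with Cas9. In ΔPG cells the promoter and the gene body were replaced by a puromycin cassette driven by the PGK promoter, and in ΔG cells only the gene body was replaced, by a GFP-IRES-Puro cassette. Each line was studied as heterozygous and as homozygous cells, either as ESCs kept with the solvent DMSO (ES) or after 48 h with 2 µM retinoic acid (RA), a signal that makes ESCs differentiate. This gives 8 groups of 3 biological replicates, 24 samples in all. Every group carries a deleted allele and a resistance cassette, so heterozygous cells served as the control and no group was wild type. The labels name no clone, so clone and genotype cannot be told apart.

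Expression is given as the rlog value of DESeq2, a log2 measure with a variance adjustment, which was computed separately for the 12 ΔPG and the 12 ΔG samples, so that levels are compared only within a table. The transformation draws the values of weakly expressed genes together, which makes their differences smaller than they would be in counts. The read depth of each sample is unknown. Differences between groups of 3 were tested with limma over the 21979 (ΔPG) and 22048 (ΔG) genes whose values varied. A gene is called higher or lower at an adjusted p under 0.1 together with a log2 difference over 0.5.

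The deleted gene was lower in homozygous than in heterozygous samples in every comparison, by 2.30 (ΔPG ES), 1.81 (ΔPG RA), 2.79 (ΔG ES) and 2.75 (ΔG RA) on the log2 scale. In all 4 RA comparisons, 10 of 10 pluripotency markers were called lower, and 8 of 8 RA response genes and 6 of 6 primitive endoderm markers higher. Of 5 fibroblast markers, 3 were called higher in ΔPG heterozygous cells and 4 in each other comparison, with list medians of 2.46 to 2.69. In ΔPG heterozygous and in ΔPG homozygous cells 1 fibroblast marker was called lower. Of 4 neural markers, 2 were called higher and 1 lower in each comparison. RA samples thus differed from ES samples in cell type markers as well as in treatment, the part of which in the results below was not tested, and in bulk RNA fewer cells with a transcript and less transcript per cell cannot be told apart. In ΔPG ES samples, differences between genotypes followed the GC content of the transcripts, with a correlation of -0.705 over 11904 genes, against -0.0011 in ΔPG RA, 0.0057 in ΔG ES and 0.11 in ΔG RA samples. For RA minus ES the correlation was -0.21 in ΔPG heterozygous cells. It was 0.12 in ΔPG homozygous, 0.11 in ΔG heterozygous and 0.13 in ΔG homozygous cells. With quantile normalization, the share of higher genes among all calls moved from 57.0% to 48.7% in ΔPG heterozygous, from 59.4% to 49.2% in ΔPG homozygous, from 60.2% to 47.9% in ΔG heterozygous and from 58.4% to 47.1% in ΔG homozygous RA comparisons, from 35.9% to 47.6% in ΔG ES and from 31.6% to 40.5% in ΔG RA.

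ATF4 acts on many of its targets through C/EBP-ATF response elements. The promoters of the 9 genes that hold such a motif are shown here, and they belong to 3 genes that fell after RA in every comparison and to Atf3, which rose. The motif TGATGNAA was searched on both strands of the RefSeq promoter windows (GRCm38.p6, 250 bases before to 50 after the start), a search chosen after the values had been seen. It was found in windows of 4 of the 9 genes, Atf3, Asns, Chac1 and Trib3, and in 3.97% of all 32851 windows. A match is only a run of letters and not a measured binding site, and for the other 5 genes the search says only that these letters are not in the window. The sequences below run 5′ to 3′ on the strand of the gene, and the capitals mark the match, which reads in reverse for Atf3, Chac1 and Trib3.
Asns (chr6:7693210-7693459, minus strand, the 250 bases before the start): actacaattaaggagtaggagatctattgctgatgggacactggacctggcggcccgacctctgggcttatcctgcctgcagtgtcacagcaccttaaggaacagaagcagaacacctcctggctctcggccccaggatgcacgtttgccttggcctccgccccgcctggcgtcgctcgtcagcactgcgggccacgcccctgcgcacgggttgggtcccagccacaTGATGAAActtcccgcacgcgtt
Chac1 (chr2:119350992-119351241, plus strand, the 250 bases before the start): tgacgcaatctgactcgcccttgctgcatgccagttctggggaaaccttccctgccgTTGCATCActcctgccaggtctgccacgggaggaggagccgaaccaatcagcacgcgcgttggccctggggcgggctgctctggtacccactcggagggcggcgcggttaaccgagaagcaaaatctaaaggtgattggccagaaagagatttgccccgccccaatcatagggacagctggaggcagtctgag
Atf3 (chr1:191183334-191183583, minus strand, the 250 bases before the start): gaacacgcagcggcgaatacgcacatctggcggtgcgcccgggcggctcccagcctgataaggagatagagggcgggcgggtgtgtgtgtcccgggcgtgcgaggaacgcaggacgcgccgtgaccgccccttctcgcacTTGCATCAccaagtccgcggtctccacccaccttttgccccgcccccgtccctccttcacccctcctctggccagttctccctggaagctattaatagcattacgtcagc
Trib3 (chr2:152344028-152344057, minus strand, 30 bases around the match): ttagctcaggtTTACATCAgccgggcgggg

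After RA, most of the 9 genes were lower and Atf3 was higher. The number called was 8 of 9 in ΔPG heterozygous, 7 in ΔPG homozygous, 8 in ΔG heterozygous and 6 in ΔG homozygous cells, beside 31.6%, 27.8%, 29.5% and 29.2% of all genes tested. Among genes with a mean value of at least 3, a level that all 9 reach, 49.4%, 42.6%, 45.5% and 46.4% were called. Asns, Trib3, Chac1, Psat1 and Atf4 were called lower in all 4 comparisons and Atf3 was called higher in all 4, whereas Ddit3, Ddit4 and Phgdh were called in some only. The calls were 7, 6, 7 and 5 lower and 1 higher in each, where 13.6%, 11.3%, 11.7% and 12.1% of all genes were called lower and 18.0%, 16.5%, 17.7% and 17.0% higher. Among genes with a mean value of at least 3, these shares were 22.7%, 18.9%, 20.0% and 20.7% lower and 26.7%, 23.6%, 25.5% and 25.8% higher. ES and RA samples did not overlap for any of the 9 genes except Ddit4 in ΔG homozygous cells, a separation that 56.1%, 52.7%, 54.5% and 52.6% of all genes showed. The median difference of the 9 genes was -1.63, -1.35, -1.56 and -1.58 on the log2 scale in the same order, beside 0.016, -0.012, 0.0094 and 0.0074 over all genes with a mean of at least 3.

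**Figure D1:**
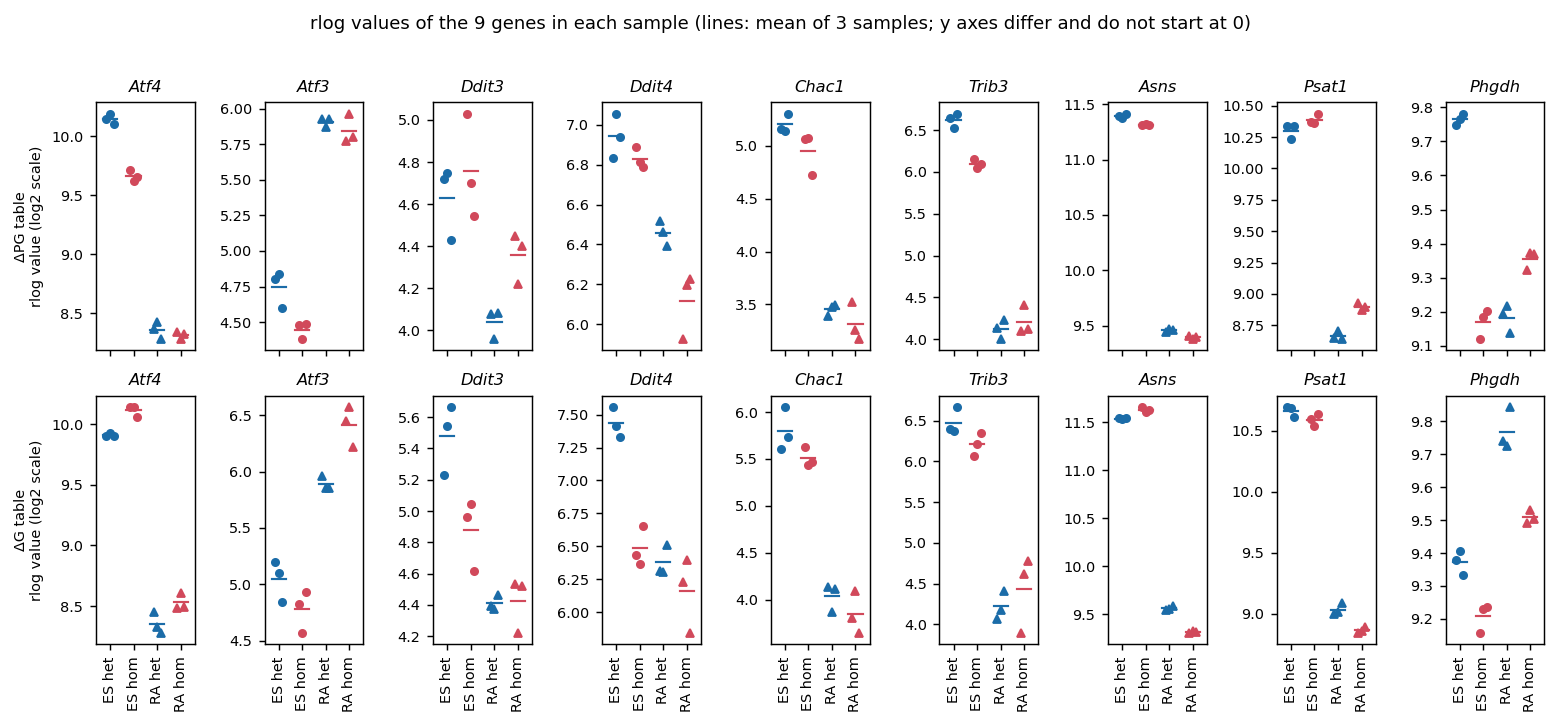
Each point is the rlog value (log2 scale, y axis) of 1 gene in 1 sample, for the ΔPG table above and the ΔG table below, with circles for ES, triangles for RA, blue for heterozygous and red for homozygous samples, and a line at the mean of 3 samples. For Asns the lowest ES value is 11.31 and the highest RA value 9.47 in the ΔPG table, and 11.53 and 9.59 in the ΔG table. Phgdh is lower in RA in ΔPG heterozygous samples and slightly higher in the other 3 comparisons.

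Atf4 (chr15:80085614-80087970, NCBIM37, plus strand) encodes the main transcription factor of the response. In the ΔPG table its rlog values were 10.15, 10.19 and 10.11 in heterozygous ES and 8.37, 8.43 and 8.28 in heterozygous RA samples. In homozygous cells they were 9.72, 9.62 and 9.66 in ES and 8.34, 8.28 and 8.33 in RA. The ES samples of both genotypes lay above all RA samples, and the differences were -1.79 ± 0.042 (SE, n = 3 against 3, 3.46-fold lower, limma adjusted p = 4.75e-08) and -1.35 ± 0.043 (2.55-fold lower, limma adjusted p = 5.16e-10). In the ΔG table Atf4 fell from 9.90, 9.93 and 9.90 to 8.45, 8.33 and 8.28 in heterozygous cells, and from 10.14, 10.14 and 10.06 to 8.49, 8.61 and 8.49 in homozygous cells. Again no ES sample overlapped an RA sample, with differences of -1.56 ± 0.052 (limma adjusted p = 2.77e-11) and -1.58 ± 0.049 (limma adjusted p = 1.06e-14).

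Atf3 (chr1:192994175-193007219, minus strand) encodes a bZIP factor that many kinds of stress and growth signals induce, and it moved the other way. In ΔPG cells it rose from 4.80, 4.84 and 4.60 to 5.93, 5.87 and 5.93 in heterozygous and from 4.48, 4.38 and 4.48 to 5.77, 5.96 and 5.80 in homozygous samples. The differences were 1.16 ± 0.085 (2.24-fold, limma adjusted p = 1.54e-05) and 1.40 ± 0.11 (2.63-fold, limma adjusted p = 8.98e-07). In ΔG cells it rose from 5.20, 5.11 and 4.85 to 5.96, 5.85 and 5.86 in heterozygous and from 4.83, 4.57 and 4.93 to 6.45, 6.57 and 6.22 in homozygous samples, by 0.84 ± 0.11 and 1.63 ± 0.13 (limma adjusted p = 2.35e-05 and 3.91e-09). RA and ES samples did not overlap in any of the 4 comparisons.

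Ddit3 (chr10:126727830-126733344, plus strand), which encodes the pro-apoptotic factor CHOP, was lower in RA in all 4 comparisons without overlap, but only the heterozygous cells passed both limits. Its difference was -0.59 ± 0.12 in ΔPG heterozygous (limma adjusted p = 0.00367) and -1.07 ± 0.12 in ΔG heterozygous cells (limma adjusted p = 6.87e-06). In homozygous cells it was -0.40 ± 0.15 in ΔPG and -0.45 ± 0.14 in ΔG, under the limit of 0.5. With quantile normalization both passed, at -0.77 and -0.83, and without a limit on the difference both had an adjusted p under 0.1 as well (0.0493 and 0.0142, limma).

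Trib3 (chr2:152163158-152169768, minus strand) encodes a pseudokinase that binds ATF4 and CHOP and restrains them, and it had the widest range of the 9 genes in both tables. Its values fell from 6.64, 6.53 and 6.70 to 4.14, 4.00 and 4.23 in ΔPG heterozygous samples, a 5.65-fold difference (-2.50 ± 0.087, limma adjusted p = 3.16e-07). In ΔPG homozygous samples they fell from 6.15, 6.05 and 6.10 to 4.10, 4.41 and 4.12 (-1.89 ± 0.12, 3.71-fold, limma adjusted p = 1.46e-07). ΔG heterozygous samples gave 6.39, 6.37 and 6.66 in ES against 4.07, 4.18 and 4.41 in RA (-2.26 ± 0.12, limma adjusted p = 2.99e-09). ES and RA samples stood far apart in each case. In ΔG homozygous cells the values were 6.07, 6.22 and 6.35 in ES and 3.90, 4.62 and 4.78 in RA, so that replicate 1 of the RA samples lay well below the other two, and the difference was -1.78 ± 0.17 (limma adjusted p = 1.06e-07).

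Chac1 (chr2:119176965-119180117, plus strand), whose product breaks down glutathione, fell by similar amounts in all 4 comparisons. It ranged from 4.73 to 5.30 in ΔPG ES and from 3.17 to 3.52 in ΔPG RA samples, and from 5.44 to 6.05 in ΔG ES and from 3.65 to 4.14 in ΔG RA samples. The differences were -1.75 ± 0.095, -1.64 ± 0.16, -1.76 ± 0.13 and -1.67 ± 0.14 in ΔPG heterozygous, ΔPG homozygous, ΔG heterozygous and ΔG homozygous cells, and the highest limma adjusted p was 5.05e-06. These are folds between 3.11 and 3.38.

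Ddit4 (chr10:59412423-59414518, minus strand) encodes REDD1, an inhibitor of the growth kinase mTORC1 that responds to energy shortage, low oxygen and glucocorticoids as well as to ATF4. It was called lower in ΔPG homozygous cells, from 6.89, 6.81 and 6.79 to 5.93, 6.20 and 6.23 (-0.72 ± 0.094, limma adjusted p = 6.25e-05). It was also called lower in ΔG heterozygous cells, from 7.56, 7.42 and 7.33 to 6.31, 6.31 and 6.51 (-1.06 ± 0.088, limma adjusted p = 2.56e-07). In ΔPG heterozygous cells the difference of -0.49 ± 0.068 just missed the limit of 0.5, which it passed with quantile normalization (-0.52), without ES replicate 1 (-0.54) and without RA replicate 1 (-0.515), while removal of the GC trend left -0.23. In ΔG homozygous cells it was -0.33 ± 0.13, and the ES samples (6.43, 6.37 and 6.66) overlapped the RA samples (6.23, 6.40 and 5.84). This value was -0.504 and called with the GC trend removed, and -0.17 without RA replicate 3.

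Among the enzymes, Asns (chr6:7625169-7643254, minus strand), which makes asparagine from aspartate and glutamine, had SDs between replicates of 0.0070 to 0.025 in the 8 groups. In ΔPG heterozygous samples it fell from 11.39, 11.37 and 11.41 to 9.44, 9.47 and 9.46, and in homozygous samples from 11.31, 11.32 and 11.31 to 9.41, 9.38 and 9.40. These are 3.82-fold and 3.78-fold differences (-1.93 ± 0.020, limma adjusted p = 1.38e-09, and -1.92 ± 0.028, limma adjusted p = 1.53e-12). In ΔG cells it fell from 11.55, 11.53 and 11.54 to 9.54, 9.56 and 9.59 in heterozygous and from 11.66, 11.61 and 11.63 to 9.31, 9.33 and 9.32 in homozygous samples. The fall was 3.93-fold in heterozygous and 4.96-fold in homozygous ΔG cells (-1.98 ± 0.032 and -2.31 ± 0.031, limma adjusted p = 3.09e-14 and 1.16e-19).

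Psat1 and Phgdh make serine from the glycolytic intermediate 3-phosphoglycerate, and they did not move alike. Psat1 (chr19:15979168-16021827, minus strand) fell by 1.63, 1.49, 1.63 and 1.72 on the log2 scale in ΔPG heterozygous, ΔPG homozygous, ΔG heterozygous and ΔG homozygous cells, and its highest limma adjusted p was 3.51e-08. In the ΔPG table its ES samples ranged from 10.23 to 10.44 and its RA samples from 8.64 to 8.93. In the ΔG table its ES samples ranged from 10.54 to 10.69 and its RA samples from 8.84 to 9.08. Phgdh (chr3:98117093-98143913, minus strand), the enzyme of the first step, was called lower only in ΔPG heterozygous cells, from 9.75, 9.76 and 9.78 to 9.19, 9.22 and 9.14 (-0.58 ± 0.027, limma adjusted p = 1.41e-06). In the other comparisons it was slightly higher in RA without overlap and under the limit of 0.5, at 0.19 ± 0.040 in ΔPG homozygous, 0.40 ± 0.047 in ΔG heterozygous and 0.30 ± 0.044 in ΔG homozygous cells. With the GC trend removed the fall in ΔPG heterozygous cells was -0.33, and with quantile normalization -0.42, both under the limit. With quantile normalization the rise in ΔG heterozygous cells passed the limit, at 0.59.

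**Figure D2:**
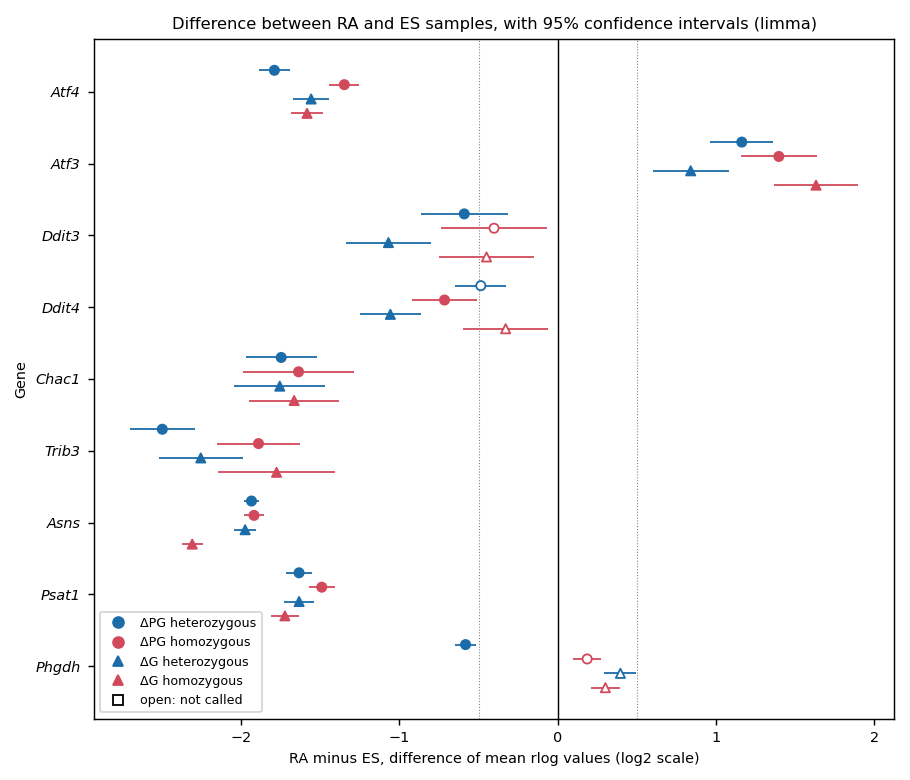
Each marker is the difference of mean rlog values between RA and ES samples (x axis, log2 scale) of 1 gene (y axis) in 1 of 4 comparisons of 3 against 3 samples, with its 95% confidence interval, and open markers were not called. Trib3, Asns, Chac1, Psat1 and Atf4 lie at or below -1.35 in all 4, Atf3 lies at or above 0.84, the markers of Ddit3 and Ddit4 lie nearer to 0, and those of Phgdh lie on both sides of it.

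The wider program was read from 10 lists of related genes, 94 genes in all. Between ES and RA, 51, 42, 50 and 45 of the 94 genes were called lower and 6, 8, 7 and 9 higher, in ΔPG heterozygous, ΔPG homozygous, ΔG heterozygous and ΔG homozygous cells. These are 54.3%, 44.7%, 53.2% and 47.9% lower, beside 13.6%, 11.3%, 11.7% and 12.1% of all genes, and 6.38%, 8.51%, 7.45% and 9.57% higher, beside 18.0%, 16.5%, 17.7% and 17.0%. Among genes with a mean value of at least 3, 22.7%, 18.9%, 20.0% and 20.7% were called lower and 26.7%, 23.6%, 25.5% and 25.8% higher. Of the 94, 37 were called lower in all 4 comparisons and 5 higher in all 4. The share of all genes called in the same direction in all 4 was not computed. Counts over all 4 comparisons, here and for the lists below, therefore cannot be set against the broad change from ES to RA. The 3 genes with the largest fall were the same in each comparison, Slc7a3, Nupr1 and Cth. Slc7a3, a transporter of arginine and lysine, fell from 8.13 to 5.22 in ΔPG heterozygous and from 8.53 to 5.42 in ΔG homozygous cells as group means, and its differences ran from -2.67 to -3.10. Nupr1, a small stress-induced chromatin protein, differed by -2.88 to -3.49, and Cth, which makes cysteine from cystathionine, by -2.30 to -2.97 (highest limma adjusted p of these 12 values 1.23e-06).

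Genes of amino acid synthesis, uptake and tRNA charging were mostly lower. All 5 serine and one-carbon enzymes (Psph, Shmt2, Mthfd2, Mthfd1l and Aldh1l2) were called lower in all 4 comparisons, with list medians of -1.64, -1.20, -1.35 and -1.37. Psph, the last step of the serine pathway that Phgdh opens, fell by 1.36, 0.89, 1.02 and 1.33 on the log2 scale. Of 7 other amino acid enzymes, 6 were called lower in all 4, and of 9 amino acid transporters 5 were, whereas Slc38a2, a transporter of small neutral amino acids, was called higher in all 4 (0.90, 0.57, 0.67 and 0.65). Of the 13 genes of tRNA charging and export that ATF4 is known to activate, 11 were called lower in all 4, with list medians of -1.27, -1.08, -1.18 and -1.23. Of the 8 other cytosolic tRNA synthetases 2 were, Dars and Qars, with list medians of -0.56, -0.42, -0.43 and -0.47, and no test compared the lists.

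Upstream in the pathway, the kinases and eIF2 itself were read separately. Of the 4 eIF2α kinases and the GCN2 partner Gcn1l1, none was called in 3 of the 4 comparisons (limma), and only Gcn1l1 in ΔPG heterozygous cells (-0.66, with the GC trend left in). The subunits of eIF2 and of its exchange factor eIF2B, listed with the regulatory subunits of the eIF2α phosphatase, held 5, 5, 6 and 6 lower calls among 10 genes and no higher one, with list medians of -0.55, -0.48, -0.57 and -0.64. Over all genes, 13.6%, 11.3%, 11.7% and 12.1% were called lower, and 22.7%, 18.9%, 20.0% and 20.7% at a mean of at least 3. Eif2s2, Eif2b5 and Ppp1r15b were called lower in all 4. Ppp1r15a, the phosphatase subunit that ATF4 induces, was not called in any, with differences of -0.26, -0.20, -0.38 and -0.06. The bZIP list was mixed. Jun, a partner of ATF3 in AP-1, rose by 2.72, 3.00, 3.43 and 3.44 on the log2 scale (highest limma adjusted p = 5.33e-08), and Jdp2 was called lower in all 4. Cebpa, which pairs with ATF4, was among the 3 largest rises in ΔPG homozygous (1.05) and ΔG heterozygous cells (1.22), and Jund in ΔG homozygous cells (1.04).

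The ATF6 and XBP1 targets, which mark the other arms of the response to unfolded protein, moved in both directions, with medians near 0. Their list medians were 0.15, 0.049, 0.095 and 0.091, with 2, 1, 1 and 2 genes of 15 called higher and 2, 0, 0 and 0 called lower. Of all genes, 18.0%, 16.5%, 17.7% and 17.0% were called higher and 13.6%, 11.3%, 11.7% and 12.1% lower. With no limit on the difference, 8 of the 15 passed higher and 5 lower in ΔPG heterozygous cells (limma). In ΔPG homozygous cells 5 and 4 did, and in ΔG heterozygous cells 5 and 5. By that rule 57.4%, 52.0% and 54.5% of all genes passed in either direction. Hspa5, the chaperone BiP, differed by 0.064, 0.049, 0.0064 and -0.028. Dnajc3, a co-chaperone that inhibits eIF2α kinases, was the 1 gene called higher in all 4, by 0.78 to 1.27. Among stress outputs, Nupr1, Stc2, Gdf15 and Sesn2 were called lower in all 4, and Gadd45a and Tnfrsf10b higher in all 4. Genes named here beyond the 3 largest rises and falls were named after their values had been seen.

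**Figure D3:**
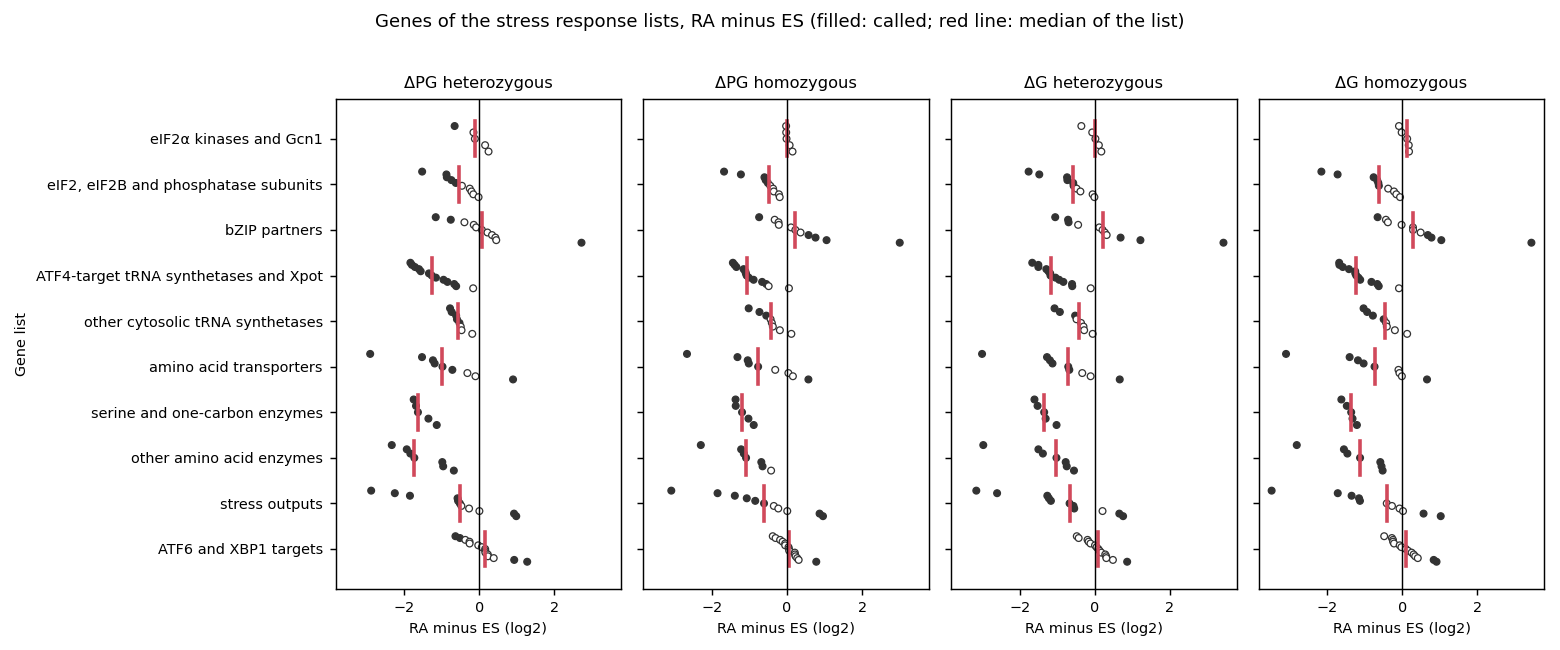
Each point is the difference between RA and ES samples (x axis, log2 scale) of 1 of 94 genes in 10 lists (y axis), in 4 comparisons of 3 against 3 samples, filled where called, with a red line at the median of the list. The serine and one-carbon enzymes lie to the left of 0 in every panel, the ATF6 and XBP1 targets are centered near 0, and the point far to the right is Jun.

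Between genotypes, fewer of the 9 genes were called than between ES and RA, although Phgdh in ΔPG ES and Ddit4 in ΔG ES differed by as much as or more than in some RA comparisons. In ΔPG ES samples 2 of 9 were called, both lower in homozygous cells, beside 13.2% of all genes called (6.29% lower). At a mean value of at least 3, a level that all 9 reach, 23.3% of genes were called (11.2% lower). Phgdh was at 9.75, 9.76 and 9.78 in heterozygous and 9.12, 9.18 and 9.20 in homozygous samples (-0.60 ± 0.030, 1.51-fold lower, limma adjusted p = 5.49e-06). Trib3 was at 6.64, 6.53 and 6.70 against 6.15, 6.05 and 6.10 (-0.52 ± 0.068, 1.44-fold lower, limma adjusted p = 0.000627). In neither gene did the groups overlap, and 6 of the 9 genes lay lower and 1 (Psat1) higher without overlap, where 39.6% of all genes did not overlap. Atf4 was lower by a similar amount that did not reach the limit (-0.48 ± 0.034, limma adjusted p = 2.50e-05). With no limit on the difference 5 of the 9 genes passed, beside 36.1% of all genes.

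These 2 calls did not hold once the trend with GC content was removed, after which none of the 9 genes was called (limma, 3 at an unadjusted p under 0.05). Phgdh was then at -0.24 (limma adjusted p = 1.00e-06) and Atf4 at -0.21 (limma adjusted p = 1.59e-06), both still lower but under the limit of 0.5. Trib3 was at -0.11 (limma adjusted p = 0.352). Ddit4, Chac1 and Asns changed sign, from -0.11, -0.25 and -0.079 to 0.29, 0.15 and 0.011, Ddit4 with a limma adjusted p of 0.00325. Phgdh and Trib3 transcripts have an exonic GC content of 56.4% and 57.8%, beside a median of 50.0% over the genes with a mean of at least 3. Ddit4 and Chac1 have similar values, 57.6% and 57.4%, with differences of -0.11 and -0.25 that were not called. The others have 54.1% (Atf4, -0.48), 52.2% (Atf3, -0.30), 50.5% (Asns, -0.079), 50.4% (Ddit3, 0.13) and 47.9% (Psat1, 0.089). The part of GC content in the difference of any single gene was not tested. In the same comparison, the mean level of 23 mitochondrially encoded genes ranged from 5.82 to 5.84 in heterozygous and from 7.04 to 7.13 in homozygous samples, and Trp53, which encodes p53, was lower by 3.02 in homozygous samples. Their part in the result was not tested. Of the 94 genes of the lists, 6 were called higher and 9 lower (6.38% and 9.57%). These shares were 6.87% and 6.29% over all genes, and 12.1% and 11.2% at a mean of at least 3. Eif2s2 (0.91), Dnajb9 (0.80) and Ero1l (0.75) stood at one end and Gcn1l1 (-0.80), Jund (-0.77) and Junb (-0.70) at the other. These list calls are from values with the GC trend left in. Without homozygous replicate 2, Trib3 was under the limit of 0.5 (-0.496, limma adjusted p = 0.00335), as it did without heterozygous replicate 3 (-0.48).

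In ΔPG RA samples 0.846% of all genes were called, and 1.37% of those with a mean of at least 3. None of the 9 genes was called (limma), and 4 had an unadjusted p under 0.05. With no limit on the difference 3 passed, beside 4.58% of all genes, and 5 of the 9 did not overlap between genotypes, beside 18.8%. Psat1 was at 8.65, 8.71 and 8.64 in heterozygous and 8.93, 8.87 and 8.90 in homozygous samples, without overlap (0.23 ± 0.038, limma adjusted p = 0.00880). Phgdh was higher by 0.17 ± 0.035 (limma adjusted p = 0.0288), opposite to its direction in ES. For Trib3 the 95% confidence interval of the difference ran from -0.22 to 0.40, and for Atf4 from -0.15 to 0.064. Of the 94 list genes, 1 was called lower (1.06%, beside 0.605% of all genes and 0.974% at a mean of at least 3). It was the p53 and ATF4 target Sesn2, at 7.58 in heterozygous and 6.82 in homozygous samples as group means (-0.76 ± 0.054, limma adjusted p = 5.59e-05). Trp53 was lower by 2.21 in the homozygous samples. Of the 6 primitive endoderm markers, 3 were called lower in them (Gata4, Sox17 and Dab2) and all 6 lay below 0, with a median of -0.45, and 1 pluripotency and 1 fibroblast marker were called lower and 1 RA response gene higher. The part of Trp53 and of these markers in the result was not tested.

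In ΔG ES samples 1 of 9 genes was called, beside 0.984% of all genes (0.630% lower), and with no limit on the difference 4 passed, beside 5.22%. At a mean value of at least 3, 1.68% of genes were called at both limits (1.13% lower). Ddit4 was at 7.56, 7.42 and 7.33 in heterozygous and 6.43, 6.37 and 6.66 in homozygous samples, without overlap (-0.95 ± 0.096, 1.93-fold lower, limma adjusted p = 0.00348). With the replicate number as a block this call was lost (limma adjusted p = 0.135), and in the other alternatives run it was kept. Ddit3 was at 5.23, 5.55 and 5.66 against 4.96, 5.05 and 4.62, also without overlap, and its adjusted p lay just over the limit (-0.60 ± 0.15, limma adjusted p = 0.102). It was called in a fit over all 12 samples, over genes with a mean of at least 3 (also with the GC trend removed, a fit over the same genes), and without heterozygous replicate 1 (limma adjusted p = 0.00568, 0.00233, 0.00255 and 0.0974). Atf4 and Asns were slightly higher in homozygous samples (0.20 ± 0.030 and 0.092 ± 0.017, limma adjusted p = 0.0165 and 0.0362), and 6 of the 9 genes did not overlap between genotypes, where 17.8% of all genes did not. Of the 94 genes of the lists, Stc2 (-1.03 ± 0.097) and Vldlr (-0.87 ± 0.10) were called lower and Eif2b3 (0.85 ± 0.095) higher. These are 1.06% higher and 2.13% lower, beside 0.354% and 0.630% of all genes. The shares at a mean of at least 3 were 0.558% and 1.13%.

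In ΔG RA samples 1 of 9 genes was called, beside 2.14% of all genes (0.676% higher), and with no limit on the difference 4 passed, beside 11.0%. At a mean value of at least 3, 3.02% of genes were called at both limits (1.03% higher). Atf3 was at 5.96, 5.85 and 5.86 in heterozygous and 6.45, 6.57 and 6.22 in homozygous samples, without overlap (0.52 ± 0.11, 1.43-fold higher, limma adjusted p = 0.00299). Its size lay close to the limit, and without homozygous replicate 2 it was 0.44 and no longer called. Asns and Phgdh were lower in homozygous samples by less than the limit (-0.24 ± 0.046 and -0.26 ± 0.047, limma adjusted p = 0.00158 and 0.000917). Of the 94 genes of the lists, Eif2b3 was called higher (0.74 ± 0.11) and Vldlr lower (-0.60 ± 0.16), as in ΔG ES samples. These are 1.06% in each direction, beside 0.676% higher and 1.46% lower of all genes. The shares at a mean of at least 3 were 1.03% and 1.99%. Of the 9 genes, 5 did not overlap between genotypes, beside 21.8% of all genes. In homozygous samples 1 of 6 primitive endoderm and 1 of 5 fibroblast markers were called lower, and 1 of 4 neural markers higher. The part of these markers in the result was not tested. Trp53 lay between 2.17 and 2.88 in all 12 ΔG samples.

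**Figure D4:**
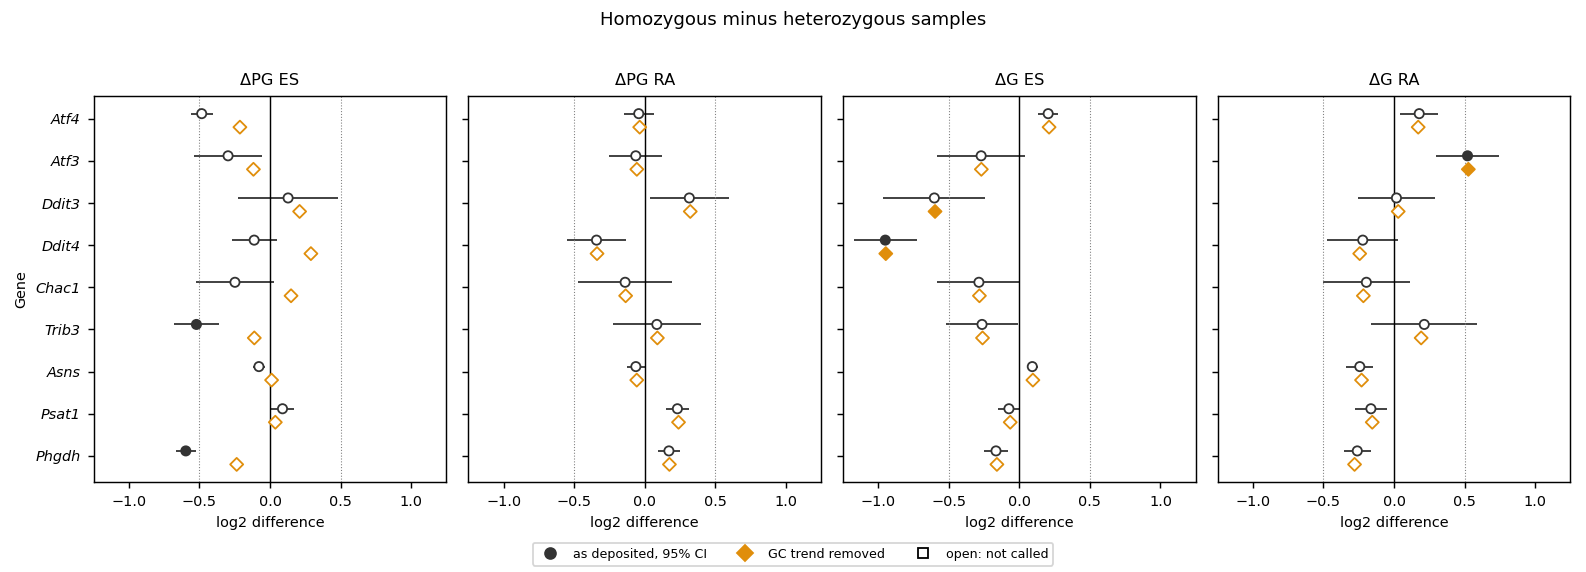
Homozygous minus heterozygous difference of mean rlog values (x axis, log2 scale) of the 9 genes (y axis) in 4 comparisons of 3 against 3 samples, with 95% confidence intervals in black and, in orange, the difference after the trend with GC content was removed, filled where called. In ΔPG ES the orange diamonds stand apart from the black circles, with Phgdh at -0.24 in place of -0.60, and in the other 3 panels they nearly coincide.

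Whether RA changed the genes differently in homozygous and heterozygous cells was tested as the difference of the 2 differences, over the 12 samples of a table. In ΔPG cells 2 of 9 genes were called, beside 13.9% of all genes and 24.2% of those with a mean of at least 3. The 2 were Phgdh (0.77 ± 0.046, limma adjusted p = 4.96e-08) and Trib3 (0.61 ± 0.14, limma adjusted p = 0.00628). Phgdh fell in heterozygous cells only, and Trib3 fell less in homozygous than in heterozygous cells, starting from a lower ES level. With no limit on the difference 4 of the 9 passed, beside 29.1% of all genes. With the GC trend removed, Phgdh stood at 0.41 (limma adjusted p = 1.82e-07), under the limit of 0.5, and Trib3 at 0.20 (limma adjusted p = 0.416), and Ddit4 was called instead, in the other direction (-0.63, limma adjusted p = 0.000273). For Asns the interval ran from -0.050 to 0.082, a narrow range around 0. Of the 94 genes of the lists, 12 were called higher and 4 lower (12.8% and 4.26%). These shares were 6.72% and 7.19% over all genes, and 11.8% and 12.4% at a mean of at least 3. The list calls were led by Vars (0.85), Jund (0.85) and Pck2 (0.84) and by Eif2s2 (-0.81), Ero1l (-0.80) and Dnajb9 (-0.70). Over 11904 genes the ΔPG interaction followed GC content, with a correlation of 0.695. These list counts and named list genes are from values with that trend left in.

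In ΔG cells 3 of 9 genes were called, beside 2.38% of all genes and 3.67% of those with a mean of at least 3. Atf3 rose more in homozygous cells (0.79 ± 0.17, limma adjusted p = 0.00626), and Ddit4 fell less in them, starting from a lower ES level (0.73 ± 0.16, limma adjusted p = 0.00695). Both were called in all 20 alternatives, including those that left out 1 sample each. Ddit3 also fell less from a lower ES level (0.62 ± 0.19, limma adjusted p = 0.0744), but it was called in 9 of the 20 alternatives and not when 8 of the 12 samples were left out in turn. As group means, heterozygous before homozygous, Ddit4 was at 7.44 and 6.49 in ES and 6.38 and 6.16 in RA. Ddit3 was at 5.48 and 4.88 in ES and 4.41 and 4.43 in RA. Asns fell more in homozygous cells, by 0.33 ± 0.046 on the log2 scale (limma adjusted p = 2.46e-05), a difference under the limit of 0.5. Of the 94 genes of the lists, 4 were called higher and none lower by limma, the largest being Stc2 (0.88), Slc1a5 (0.63) and Syvn1 (0.60). The 4 are 4.26%, beside 1.19% of all genes and 1.98% of those with a mean of at least 3.

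**Figure D5:**
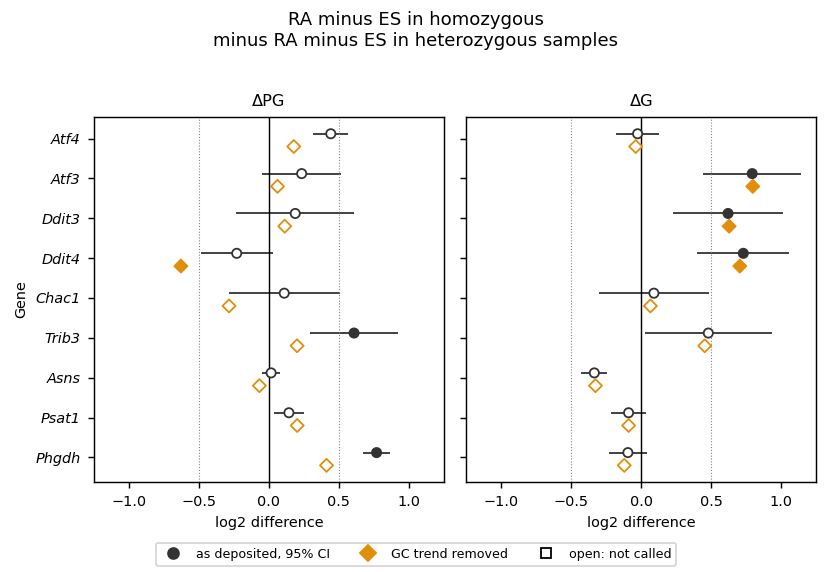
Difference between genotypes in the RA response (x axis, log2 scale) of the 9 genes (y axis) over the 12 samples of the ΔPG and of the ΔG table, with 95% confidence intervals in black and the difference after removal of the GC trend in orange, filled where called. Phgdh and Trib3 lie right of 0.5 in ΔPG until the trend is removed, and Atf3, Ddit4 and Ddit3 lie right of 0.5 in ΔG with and without it.

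The genes whose values ran closest to those of the 3 members with the widest range were found by the correlation over the 12 samples of a table, among genes with a mean of at least 3. Because all 12 samples share the change from ES to RA, such correlations are high for very many genes. For Asns they were Mylpf, L1td1 and Aqp3 in the ΔPG table (r from 0.9993 to 0.9997) and H2-M5, Bcat1 and Eif4a1 in the ΔG table (r from 0.9988 to 0.9996). For Trib3 they were Mars, Ddx39 and Uqcrc1 in ΔPG (r from 0.9964 to 0.9968). For Chac1 they were Elf3, Ngdn and Gm7325 in ΔPG and Picalm, Gm10069 and Cs in ΔG. Mars, a methionyl-tRNA synthetase among the 13 listed, was the single gene of the stress response lists among those named here, and Bcat1 starts the breakdown of branched-chain amino acids.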

How the data were processed

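Total RNA libraries (TruSeq Stranded with Ribo-Zero) of 24 samples were sequenced as paired-end reads. The authors aligned the reads to NCBI37/mm9 with TopHat2 (2.1.0 per the labels) and GENCODE gene models, removed duplicates with Picard, counted reads per gene name by strand with HTSeq (0.6.0) and deposited rlog values (log2 scale) made with DESeq2 (1.14.1), in 1 table for each deletion. Whether the transformation used the groups is not given in the sources used here. No counts were used, so the depth per sample is unknown, and p-values measure the spread between 3 biological replicates whose independence beyond that name is not described.

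Genes whose values did not vary were left out. Each comparison was fitted to its 6 samples, and the interaction to 12, with limma 3.58.1 in R 4.3.3 (lmFit, eBayes with a variance trend) over all genes that varied, with Benjamini-Hochberg adjustment and calls at an adjusted p under 0.1 and a log2 difference over 0.5. Alternatives were another sample set, no variance trend, a minimum mean of 3, quantile normalization, other limits, the replicate number as a block, removal of a lowess trend (span 0.3) with exonic GC content (NCBIM37 with its GENCODE models, over genes with a mean of at least 3) and leaving out each sample. The limma fits were tested on simulated data. The 9 genes, the lists and the tests were chosen with earlier results of these data known. Named genes are the 9, the deleted gene, the 3 called list genes with the largest rise and fall in each comparison, the 3 most like genes (those of Trib3 in the ΔG table are not reported here), and genes chosen after their values were seen, Trp53 among them. Promoters are from RefSeq (GRCm38.p6), which held windows for all 9 genes, and Python 3.11.15 with matplotlib 3.10.9 drew the figures. Capture-C, 4C-seq and RIP-seq data of the study were not used here.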

Additional observations from a re-analysis of the deposited data

Results flagged for a closer look

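For 5 values, the response to RA differed between homozygous and heterozygous cells by the test of the difference itself (limma over the 12 samples of a table). In ΔPG cells these were Trib3 (0.61, limma adjusted p = 0.00628) and Phgdh (0.77, limma adjusted p = 4.96e-08). Neither was called after removal of the GC trend (0.20 and 0.41), Phgdh because of its size only. In ΔG cells the values were those of Atf3 (0.79, limma adjusted p = 0.00626), Ddit4 (0.73, limma adjusted p = 0.00695) and Ddit3 (0.62, limma adjusted p = 0.0744). Ddit4 and Ddit3 already lay lower in homozygous than in heterozygous ΔG ES samples, without overlap. Groups of 3 samples are too small for the test of single outlying samples, so none was run.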

How the results depend on the processing

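None of the 4 RA comparisons changed its number of called genes among the 9 by more than 1.5 times under any alternative run. In ΔPG ES, 2 called genes became 1 with quantile normalization, 1 at an adjusted p under 0.05 and a fold over 1.5, 5 with no limit on the difference, 0 with the GC trend removed (limma, 3 at an unadjusted p under 0.05) and 0 with the replicate block and the GC trend removed, and 1 to 3 when single samples were left out. In ΔPG RA, 0 became 3 with no limit on the difference and stayed at 0 to 0 without single samples. In ΔG ES, 1 became 2 in the fit over 12 samples, 2 at a mean of at least 3, 4 with no limit, 2 with the GC trend removed, 2 with the block and the GC trend removed, and 1 to 2 without single samples (2 without heterozygous replicate 1). In ΔG RA, 1 became 0 at the stricter limits, 4 with no limit, and 0 to 1 without single samples. The ΔPG interaction went from 2 to 4 with no limit, 1 with the GC trend removed and 1 with the block and the GC trend removed. The causes were not tested.

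Samples with the same replicate number did not deviate together, with correlations from -0.0255 to 0.0855, so the numbers were not taken to pair them. With the replicate number as a block, calls among the 9 genes in ΔG ES went from 1 to 0 (Ddit4 at a limma adjusted p of 0.135, 6 genes at an unadjusted p under 0.05) and over all genes from 217 to 44, and in ΔPG RA over all genes from 186 to 112.

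Removing the GC trend, with or without the block, turned ΔPG ES differences of Ddit4 to 0.29, Chac1 to 0.15 and Asns to 0.011, and ΔPG interactions of Chac1 to -0.28 and Asns to -0.067. Leaving out single samples moved small differences across 0, for Ddit3 from -0.0077 to 0.23 in ΔPG ES and from -0.036 to 0.12 in ΔG RA, for Trib3 from -0.014 to 0.14 in ΔPG RA, and in the interactions for Chac1 from -0.0039 to 0.18 in ΔPG and from -0.036 to 0.19 in ΔG and for Atf4 from -0.066 to 0.022 in ΔG. The GC trend was removed over genes with a mean of at least 3 only. Over those genes, calls went from 2784 to 865 in ΔPG ES and from 2976 to 1122 in the ΔPG interaction. At the stricter limits, calls over all genes went from 217 to 117 in ΔG ES, from 471 to 275 in ΔG RA and from 524 to 268 in the ΔG interaction. Without counts, read depth could not be weighed, and differences of weakly expressed genes are understated by the transformation.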
